A study of Homo sapiens with 9 samples.

Results

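A group of 49 neighbouring genes on the long arm of human chromosome 2, in bands q11 to q21, was examined in LN229 cells in which the gene ARNT2 had been targeted. The genes were given as a list of symbols from a stretch of 36 Mb that begins at about 97 Mb. The members were chosen by the measured differences between the knockout line C4 and wild-type cells (WT), in which their RNA was lower in C4. Those differences are given here as a description. Counts of members past limma's threshold in that comparison stand beside the share of all genes and are no evidence of their own. All 49 were among the 19356 genes of the table, and 48 passed a filter on low values that left 16457 genes. EDAR, a receptor of the tumour necrosis factor receptor family that shapes skin appendages, was left out by it, with log2 values of 1.44 to 1.47 in the 9 libraries.

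LN229 is an established glioblastoma cell line. The ARNT2 knockout lines C4 and B3 and WT cells gave 3 libraries each of polyadenylated RNA, and all were grown alike in DMEM with 5% FBS. The question was what ARNT2 does in growth and differentiation of glioblastoma cells. The genotype of C4 and B3 is given as ARNT2 KO, made with CRISPR per the series' design text. The labels do not say whether each line grew from 1 cell, or whether the samples of a group were separate cultures, so p-values cover the spread of these libraries alone, which may be technical. The targeted gene itself, ARNT2, on chromosome 15, had log2 values of 12.22, 12.15 and 12.05 in C4, 11.91, 11.90 and 11.86 in B3 and 13.56, 13.59 and 13.58 in WT. The differences from WT were -1.43 in C4 and -1.69 in B3, and neither line overlapped WT.

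ARNT2 encodes a transcription factor of the basic helix-loop-helix PAS family that works as a dimer with partners such as HIF1A, SIM1 and NPAS4. It is abundant in the nervous system. The chromosome 2 genes share a neighbourhood and no common function: their products serve the Golgi, signalling, RNA synthesis, DNA repair, chromatin, the cytoskeleton and cell division. Tumour cell lines often carry gains and losses of chromosome segments that can differ between subclones, and the RNA of genes in such a segment tends to follow the number of copies. DNA was not measured here.

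Read depth is unknown, since the table holds log2 values already scaled by the authors. Their median over all genes was 10.62 to 10.65 in each library. The values resemble a regularized-log transform, which pulls weakly expressed genes toward their mean, so differences of weak genes may be understated. The transform is not named, and this was not tested. Of the markers of the labelled cell type, VIM at 17.83 to 18.23, NES at 15.32 to 15.47, CD44 at 16.48 to 16.62 and S100B at 16.12 to 16.49 were high in every library. SOX2, at 12.19 to 12.50, and EGFR, at 11.68 to 12.30, were intermediate. The glial filament gene GFAP, at 6.61 to 6.98, and the glial transcription factor gene SOX9, at 4.09 to 4.23, were weak. Markers of leukocytes, endothelium, epithelium and oligodendrocytes stayed at or below 7.72. Of the neuronal markers, RBFOX3 was weak at 3.25 to 3.34, while the synaptic gene SYT1 reached 11.81 to 12.37. In these bulk samples, fewer cells that make an RNA and less of it per cell cannot be told apart.

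The promoters of 4 members are shown because these genes run from a strong to a weak lowering in C4 and include LONRF2, the 1 member called higher in C4 than in B3. They were chosen after their values were seen. Each is the 250 bases before the gene's start, 5′ to 3′ along the gene's strand, from RefSeq on GRCh38.p14. CKAP2L lies at chr2:112764610-112764859, minus strand, ZC3H8 at chr2:112255043-112255292, minus strand, RANBP2 at chr2:108719232-108719481, plus strand and LONRF2 at chr2:100322502-100322751, minus strand. Capitals mark ACGTG and GCGTG and their reverse complements, the core letters known as binding sequences of hypoxia-inducible factors and of the dioxin receptor with ARNT proteins.
CKAP2L: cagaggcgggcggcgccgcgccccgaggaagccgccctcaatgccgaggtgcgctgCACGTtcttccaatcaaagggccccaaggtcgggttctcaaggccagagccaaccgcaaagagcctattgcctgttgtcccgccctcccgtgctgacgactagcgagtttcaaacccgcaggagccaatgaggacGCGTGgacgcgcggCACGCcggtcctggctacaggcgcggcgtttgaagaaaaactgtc
ZC3H8: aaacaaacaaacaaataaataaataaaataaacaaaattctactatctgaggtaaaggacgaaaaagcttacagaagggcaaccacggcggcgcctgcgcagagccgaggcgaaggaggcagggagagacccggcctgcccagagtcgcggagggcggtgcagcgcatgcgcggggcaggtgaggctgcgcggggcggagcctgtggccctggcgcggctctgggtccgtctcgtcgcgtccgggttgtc
RANBP2: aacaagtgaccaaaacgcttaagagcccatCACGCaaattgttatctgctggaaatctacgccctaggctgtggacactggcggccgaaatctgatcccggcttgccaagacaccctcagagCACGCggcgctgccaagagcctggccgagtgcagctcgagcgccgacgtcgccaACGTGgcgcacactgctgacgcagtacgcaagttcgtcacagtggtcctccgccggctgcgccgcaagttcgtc
LONRF2: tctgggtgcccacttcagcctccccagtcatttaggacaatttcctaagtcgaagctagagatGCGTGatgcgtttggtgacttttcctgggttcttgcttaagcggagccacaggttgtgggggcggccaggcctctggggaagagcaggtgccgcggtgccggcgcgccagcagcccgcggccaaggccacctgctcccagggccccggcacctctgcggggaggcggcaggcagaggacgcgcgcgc

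RefSeq promoters were matched for 34 of the 49 members. ACGTG, searched on both strands, stood in 9 of the 34 (26.5%), against 18.4% of the 22114 promoters of the same length in the table. GCGTG stood in 14 (41.2%), against 31.1%, and either motif in 18 (52.9%), against 42.2%. Members' promoters were also richer in G and C, with a median of 70.8% against 57.2%, and held a median of 25 CpG dinucleotides against 9. Both motifs hold a CpG, so base composition and motif share cannot be told apart here. The promoters of CKAP2L and RANBP2 held the same motifs, 1 ACGTG and 2 GCGTG each, while their differences in C4 were -0.87 for CKAP2L and -0.17 for RANBP2. The promoter of ZC3H8, at -0.70, held neither, and that of LONRF2 held 1 GCGTG. A match is a run of letters and not a measured site.

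In C4, nearly all of the 48 tested members lay lower than in WT. Their median difference was -0.38 on the log2 scale, a level of 76.8% of WT, against a median of 0.001 for all genes tested. Of the 48, 43 passed limma's adjusted p of 0.05 as lower, 0 as higher and 5 as neither. Over all genes tested, 56.2% were called in that comparison, 28.0% lower and 28.2% higher, and nothing is read from the members' count, because the comparison chose them. The quartiles of the 48 were -0.45 and -0.26, a width of 0.19, against 0.18 for all genes. Choosing members by low values in C4 can itself narrow that width, so no uniform shift is read from it. The 93 other tested genes of the stretch had a width of 0.44. At a mean log2 value of at least 10, the widths were 0.17 for members, 0.26 for those other genes and 0.22 for all genes. Between -0.5 and -0.25 lay 29 members, with 8 below and 11 above. All members' differences are on the log2 scale, with SE from limma and 3 libraries per group.

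**Figure D1:**
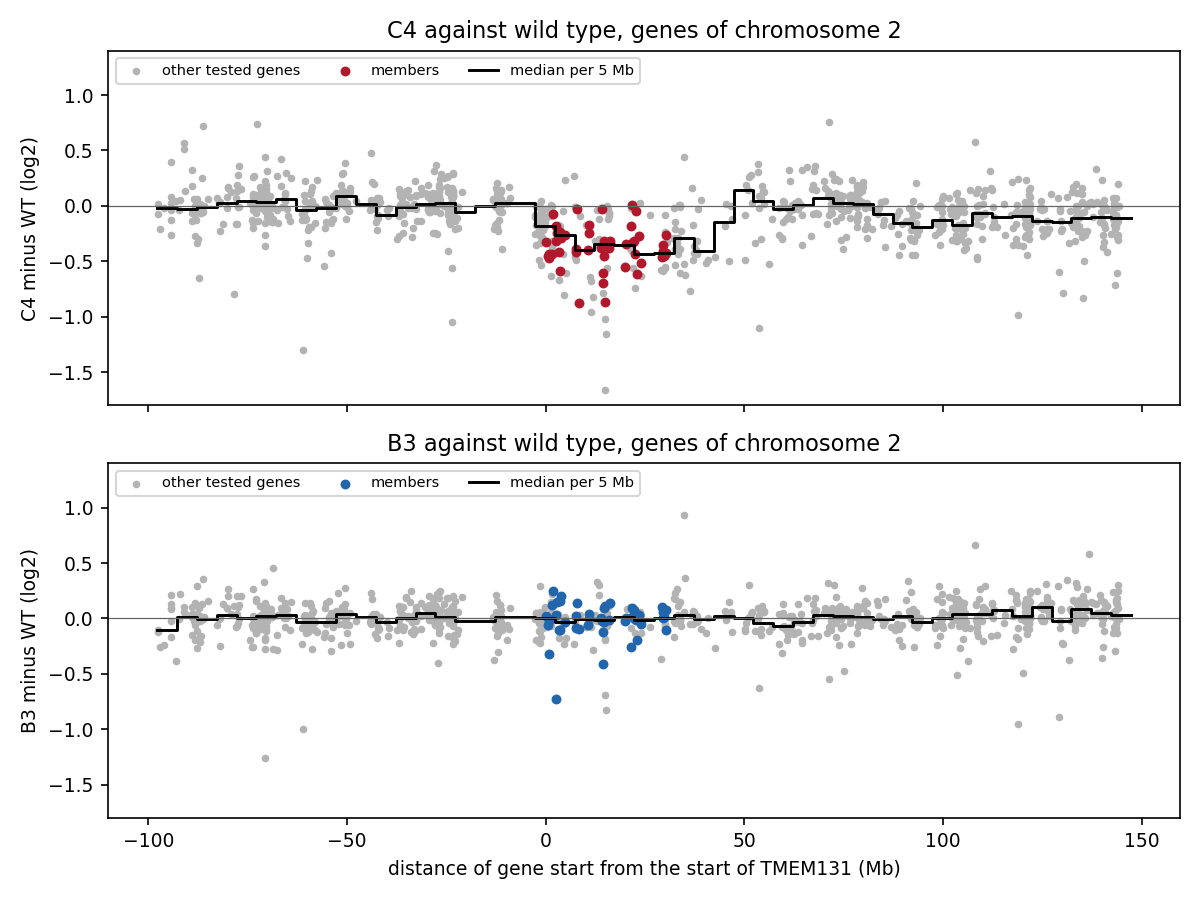
Difference from WT (log2, vertical axes) of each tested gene of chromosome 2, by distance from the start of TMEM131 in Mb, for C4 (upper panel) and B3 (lower panel). Coloured points are members, grey points other genes and the black line the median per 5 Mb. Members have a median of -0.38 in C4 and of 0.001 in B3.

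The shift was alike in every C4 library. Taken as the median difference from the WT mean of each member, it was -0.36, -0.37 and -0.38 in the 3 C4 libraries. The B3 libraries stood at -0.001, -0.001 and 0.007, and the WT libraries at 0.010, -0.001 and -0.007. For 41 of the 48 members, every C4 library lay below every B3 and every WT library. Over all genes tested, the groups did not overlap, with C4 lower, in 30.2% against WT and in 30.9% against B3. The share of all genes that met both was not counted. Nothing is read from the 41, because the members were chosen as lower in C4 than in WT. The corresponding differences over all genes stayed within 0.002 of 0 in each library. The authors had already scaled the libraries to each other, so this cannot show whether their overall scales agreed before that.

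**Figure D2:**
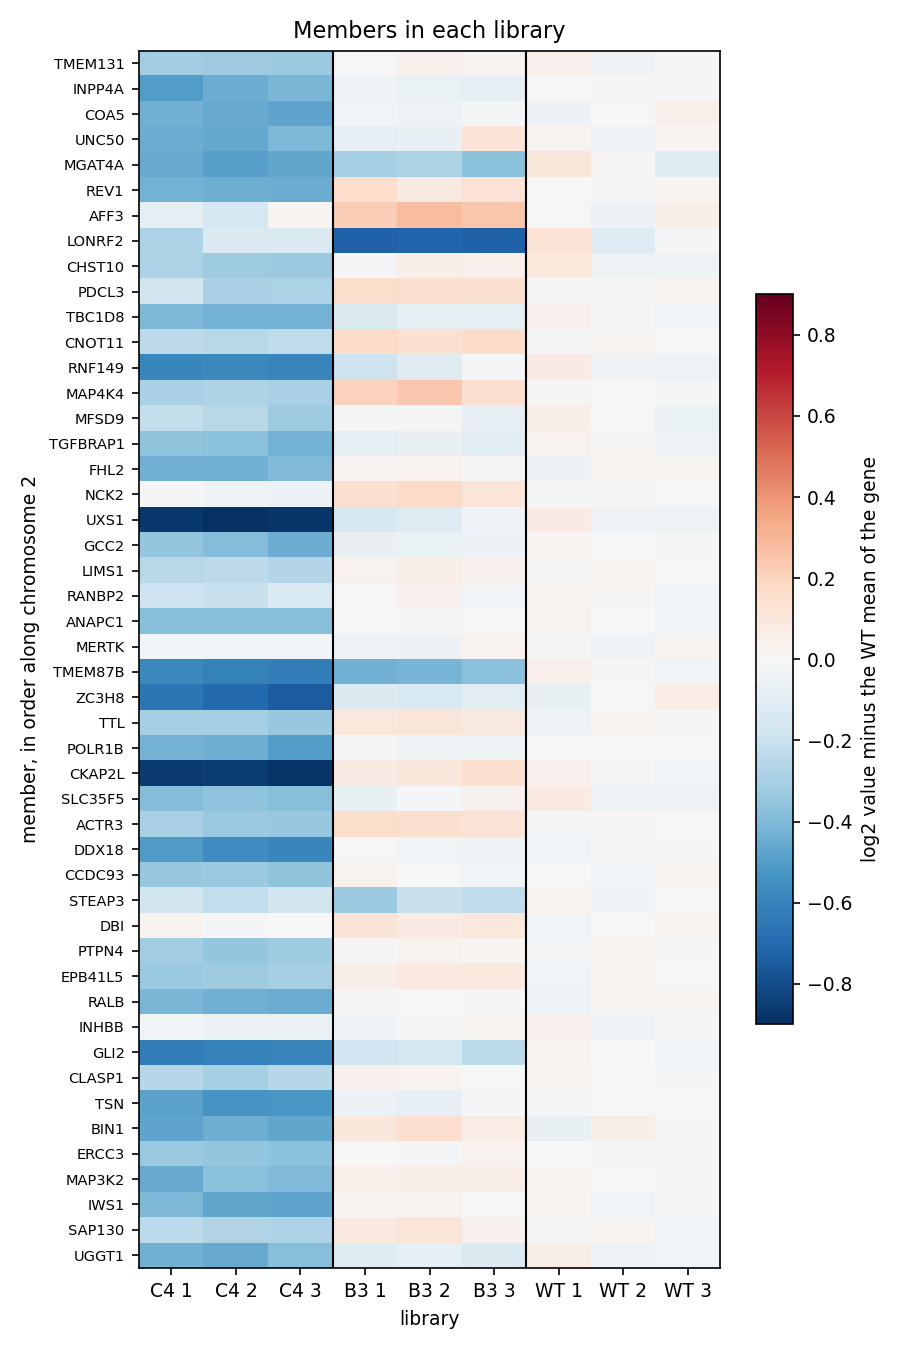
Log2 value minus the gene's WT mean, by colour from blue (lower) to red (higher), for the 48 tested members in chromosome order (vertical) in the 3 C4, 3 B3 and 3 WT libraries (horizontal). The C4 columns are blue over nearly the full length, with pale rows at AFF3, NCK2, MERTK, DBI and INHBB, and LONRF2 is darkest in B3.

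Medians of members were close in 3 spans along the stretch, and the shift was smaller in 3 of the 4 weakly expressed members. Split by position into spans of 16 members, the medians were -0.36 from TMEM131 to TGFBRAP1, -0.39 from FHL2 to DDX18 and -0.35 from CCDC93 to UGGT1. Within these spans, members ran from -0.59 to -0.07, from -0.88 to -0.02 and from -0.61 to 0.01. As members were chosen for low values in C4, no evenness is read from these medians. Over all tested genes of chromosome 2, C4 medians per 5 Mb between 100 and 130 Mb ran from -0.26 to -0.43. The 24 members on the plus strand had a median of -0.32 and the 24 on the minus strand of -0.40. Across all 48 members, Spearman's rho of level with difference was -0.16. Across the 44 with a mean log2 value of at least 10, it was -0.05, and rho of position with difference was -0.09. These are descriptions across genes that share the same libraries. The 4 weaker members, MGAT4A, AFF3, MERTK and INHBB, had a median of -0.06, against -0.39 for the 44. They differed among themselves, from -0.47 for MGAT4A to -0.02 for MERTK.

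All 11 members of the Golgi, endosome, glycosylation and folding group were lower in C4, with a median of -0.42. UXS1, which makes UDP-xylose for the first sugar of proteoglycan chains (ENSG00000115652.14, chr2:106093303-106194339, minus strand on GRCh38), had log2 values of 14.68, 14.66 and 14.68 in C4, 15.41, 15.43 and 15.52 in B3 and 15.62, 15.52 and 15.51 in WT. Its C4 libraries lay far below the other 6, at 54.5% of the WT level (-0.88 ± 0.03), the strongest difference among the members. UGGT1, the folding sensor that adds glucose back to unfolded glycoproteins, had 15.11, 15.09 and 15.16 in C4, 15.44, 15.47 and 15.42 in B3 and 15.61, 15.52 and 15.52 in WT. The difference was -0.42 ± 0.03 in C4, and B3 lay below WT as well. TMEM131, a transmembrane protein that takes part in collagen secretion, had 14.15, 14.14 and 14.13 in C4, 14.47, 14.50 and 14.50 in B3 and 14.51, 14.43 and 14.45 in WT. Its C4 libraries were below all others (-0.33 ± 0.02), while those of B3 and WT overlapped. PDCL3, a phosducin-like chaperone of the CCT folding machine, had 12.06, 11.93 and 11.94 in C4, 12.38, 12.37 and 12.35 in B3 and 12.20, 12.21 and 12.25 in WT. Here the 3 groups did not overlap: C4 was lowest and B3 highest, with differences from WT of -0.25 ± 0.03 in C4 and 0.15 ± 0.03 in B3.

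The other 7 genes of that group lay between -0.61 and -0.31 in C4. They were TMEM87B, a Golgi membrane protein, at -0.61 ± 0.02, RNF149, a membrane-bound ubiquitin ligase, at -0.59 ± 0.03, and MGAT4A, which branches N-glycans, at -0.47 ± 0.04. UNC50, a Golgi protein that takes part in receptor trafficking, was at -0.44 ± 0.04 and GCC2, a Golgi tether of vesicles, at -0.40 ± 0.02. CCDC93, a subunit of the CCC complex of endosomal recycling, was at -0.35 ± 0.02 and CHST10, which sulfates the HNK-1 glycan, at -0.31 ± 0.03.

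In the signalling group, 6 of the 8 tested members were lower in C4, with a median of -0.37. MAP4K4, a kinase upstream of JNK, had log2 values of 16.04, 16.05 and 16.04 in C4, 16.54, 16.58 and 16.48 in B3 and 16.35, 16.33 and 16.32 in WT. C4 lay below WT (-0.29 ± 0.03) and B3 above it (0.20 ± 0.03), with no overlap of the 3 groups. RALB, a small GTPase of the RAS family, had 13.17, 13.15 and 13.14 in C4, 13.60, 13.58 and 13.57 in B3 and 13.55, 13.60 and 13.61 in WT, so that C4 was lower (-0.43 ± 0.02) and B3 and WT overlapped. NCK2, an SH2 and SH3 adaptor that links receptors to actin, had 14.56, 14.54 and 14.52 in C4, 14.71, 14.74 and 14.68 in B3 and 14.56, 14.58 and 14.57 in WT. It stood out from its neighbours, since C4 and WT differed by -0.03 ± 0.02 and B3 lay above both. The next tested member along the chromosome is UXS1, 199 kb away, the one with the strongest difference. MERTK, a receptor kinase that clears dying cells, was weak, with 5.54, 5.54 and 5.54 in C4, 5.52, 5.51 and 5.60 in B3 and 5.57, 5.54 and 5.59 in WT, and its 3 groups overlapped (-0.02 ± 0.03 in C4).

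The 4 other signalling members were close to each other in C4. INPP4A, a phosphatase of phosphoinositides, was at -0.45 ± 0.03, TBC1D8, a protein with a RAB GTPase-activating domain, at -0.42 ± 0.02, and MAP3K2, a kinase of the ERK5 and JNK cascades, at -0.41 ± 0.02. The tyrosine phosphatase gene PTPN4 was at -0.33 ± 0.03.

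All 6 genes of DNA repair and RNA synthesis or processing were lower in C4, with a median of -0.45. TSN, the nucleic acid-binding protein translin, had log2 values of 14.80, 14.75 and 14.75 in C4, 15.22, 15.21 and 15.27 in B3 and 15.27, 15.29 and 15.28 in WT, a difference of -0.51 ± 0.02. DDX18, an RNA helicase of ribosome assembly, had 14.65, 14.60 and 14.57 in C4, 15.15, 15.13 and 15.13 in B3 and 15.13, 15.17 and 15.17 in WT, a difference of -0.55 ± 0.02. POLR1B, the second-largest subunit of RNA polymerase I, had 14.51, 14.50 and 14.43 in C4, 14.92, 14.90 and 14.89 in B3 and 14.93, 14.93 and 14.94 in WT, a difference of -0.46 ± 0.02. For each of these genes the C4 libraries were the lowest and B3 and WT were close together. REV1, a polymerase and scaffold of DNA synthesis across lesions, had 12.48, 12.47 and 12.46 in C4, 13.06, 12.99 and 13.04 in B3 and 12.91, 12.89 and 12.92 in WT. Its C4 libraries lay below WT (-0.44 ± 0.02) and its B3 libraries above (0.12 ± 0.02). CNOT11, a subunit of the CCR4-NOT deadenylase, had 12.83, 12.82 and 12.84 in C4, 13.23, 13.22 and 13.23 in B3 and 13.06, 13.09 and 13.07 in WT, again with C4 lowest (-0.24 ± 0.02) and B3 highest (0.16 ± 0.02). ERCC3, the XPB helicase of TFIIH, was at -0.35 ± 0.02 in C4. REV1 overlaps EIF5B, and CNOT11 overlaps TBC1D8. Whether the counting used strand is not given in the sources used here, so reads of overlapping genes may not be told apart.

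Of 8 genes of a ligand, transcription factors and chromatin, 6 were lower in C4, with a median of -0.40. GLI2, the main transcriptional activator of Hedgehog signalling (ENSG00000074047.21, chr2:120735623-120992653, plus strand on GRCh38), had log2 values of 12.39, 12.41 and 12.42 in C4, 12.85, 12.87 and 12.78 in B3 and 13.04, 13.02 and 12.999 in WT. C4 lay lowest (-0.61 ± 0.03) and B3 also lay below WT (-0.19 ± 0.03). ZC3H8, a zinc finger protein of small nuclear RNA transcription, had 10.42, 10.37 and 10.32 in C4, 10.95, 10.93 and 10.97 in B3 and 11.002, 11.07 and 11.13 in WT, and its C4 libraries lay well below the rest (-0.70 ± 0.04). IWS1, a partner of the elongation factor SPT6, had 13.36, 13.29 and 13.29 in C4, 13.78, 13.79 and 13.76 in B3 and 13.78, 13.73 and 13.77 in WT, a difference of -0.45 ± 0.02 with B3 and WT overlapping. FHL2, a LIM-domain coregulator of transcription, had 12.68, 12.69 and 12.72 in C4, 13.15, 13.15 and 13.13 in B3 and 13.07, 13.14 and 13.14 in WT, a difference of -0.42 ± 0.03. TGFBRAP1, a CORVET tethering subunit that also binds TGF-β receptors, had 12.89, 12.88 and 12.83 in C4, 13.17, 13.18 and 13.16 in B3 and 13.29, 13.27 and 13.21 in WT, a difference of -0.39 ± 0.03. In each of these genes every C4 library lay below the other 6. SAP130, a subunit of the Sin3 histone deacetylase complex, had 12.67, 12.64 and 12.64 in C4, 12.998, 13.02 and 12.95 in B3 and 12.92, 12.93 and 12.89 in WT. Its C4 libraries were the lowest (-0.26 ± 0.03) and its B3 libraries the highest (0.08 ± 0.03).

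The remaining pair of that group was close to WT in C4. AFF3, a subunit of super elongation complexes, had 9.58, 9.50 and 9.68 in C4, 9.88, 9.94 and 9.91 in B3 and 9.66, 9.60 and 9.72 in WT. C4 and WT differed by -0.07 ± 0.05, and the B3 libraries were the highest. INHBB, which encodes the β subunit of activin B, was weak, with 3.82, 3.78 and 3.78 in C4, 3.80, 3.83 and 3.87 in B3 and 3.89, 3.82 and 3.84 in WT, and C4 differed by -0.05 ± 0.02. The difference was -0.06 without C4 replicate 1 and -0.07 without WT replicate 2, and in either case INHBB joined the members past the threshold.

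The 5 genes of actin, tubulin, membrane shape and adhesion were all lower in C4, with a median of -0.32. In B3, 4 of them were called higher by limma, against 23.2% of all genes tested. The call of EPB41L5 ended when single libraries were left out, and nothing is read from so small a count. ACTR3, the actin-related subunit of the Arp2/3 complex, had log2 values of 15.62, 15.58 and 15.57 in C4, 16.06, 16.05 and 16.03 in B3 and 15.90, 15.92 and 15.91 in WT. TTL, the ligase that restores tyrosine to tubulin, had 13.83, 13.83 and 13.79 in C4, 14.22, 14.24 and 14.21 in B3 and 14.10, 14.15 and 14.14 in WT. BIN1, which bends membranes in endocytosis, had 12.92, 12.95 and 12.92 in C4, 13.49, 13.54 and 13.46 in B3 and 13.33, 13.44 and 13.41 in WT. In these the 3 groups did not overlap, with C4 lowest and B3 highest. EPB41L5, a FERM-domain protein of cell polarity, had 11.65, 11.67 and 11.69 in C4, 12.04, 12.08 and 12.08 in B3 and 11.97, 12.01 and 11.995 in WT. LIMS1, the PINCH1 adaptor of integrin adhesions, had 13.81, 13.83 and 13.80 in C4, 14.09, 14.12 and 14.10 in B3 and 14.05, 14.08 and 14.05 in WT. The differences of C4 from WT were -0.32 ± 0.02 for ACTR3, -0.31 ± 0.02 for TTL, -0.46 ± 0.03 for BIN1, -0.32 ± 0.03 for EPB41L5 and -0.25 ± 0.02 for LIMS1. LIMS1 has near-identical copies in this stretch of the genome, LIMS3 and LIMS4, and its value is uncertain where the counting could split their reads.

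The 4 genes of cell division and the nuclear pore were lower in C4 to very unequal extents. CKAP2L, a spindle protein of dividing neural progenitors, had log2 values of 12.999, 13.01 and 12.98 in C4, 13.94, 13.97 and 14.01 in B3 and 13.90, 13.85 and 13.84 in WT. The C4 libraries stood at 54.8% of WT (-0.87 ± 0.02) and the B3 libraries above WT. CLASP1, which holds microtubule ends at the kinetochore, had 13.88, 13.84 and 13.89 in C4, 14.19, 14.17 and 14.15 in B3 and 14.16, 14.14 and 14.13 in WT, a difference of -0.27 ± 0.02. RANBP2, the large nucleoporin of the cytoplasmic pore filaments, had 14.52, 14.51 and 14.57 in C4, 14.70, 14.74 and 14.68 in B3 and 14.72, 14.71 and 14.68 in WT. Its C4 libraries were still the lowest, with the small difference of -0.17 ± 0.02. ANAPC1, the largest scaffold subunit of the anaphase-promoting complex, was at -0.38 ± 0.02. RANBP2 shares sequence with the RGPD genes, GCC2 with parts of the same duplications, and ANAPC1 with pseudogene copies, so their values are uncertain in the same way as that of LIMS1.

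Of 5 genes of mitochondria, metabolism and transport, 4 were lower in C4, with a median of -0.26. COA5, an assembly factor of cytochrome c oxidase, had 12.71, 12.68 and 12.66 in C4, 13.12, 13.10 and 13.12 in B3 and 13.09, 13.14 and 13.19 in WT, a difference of -0.45 ± 0.03. SLC35F5, a predicted solute carrier, had 13.58, 13.61 and 13.59 in C4, 13.91, 13.95 and 14.01 in B3 and 14.05, 13.93 and 13.93 in WT, a difference of -0.38 ± 0.03. DBI, the acyl-CoA binding protein that also acts on benzodiazepine-sensitive receptors, had 14.80, 14.75 and 14.77 in C4, 14.89, 14.85 and 14.87 in B3 and 14.75, 14.77 and 14.79 in WT. It was the 1 member without any lowering in C4 (0.01 ± 0.02), and its B3 libraries lay above both other groups. STEAP3, a ferrireductase of the transferrin cycle, was at -0.19 ± 0.04, and MFSD9, a predicted transporter, at -0.26 ± 0.04.

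LONRF2, a LON-domain and RING-finger protein known as a ubiquitin ligase of neurons in mice (ENSG00000170500.12, chr2:100273291-100322733, minus strand on GRCh38), ran against the rest. Its log2 values were 11.69, 11.84 and 11.84 in C4, 11.24, 11.25 and 11.24 in B3 and 12.09, 11.85 and 11.96 in WT. The B3 libraries were by far the lowest, and those of C4 lay between B3 and WT, so that C4 was higher than B3 by 0.55 ± 0.05.

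**Figure D3:**
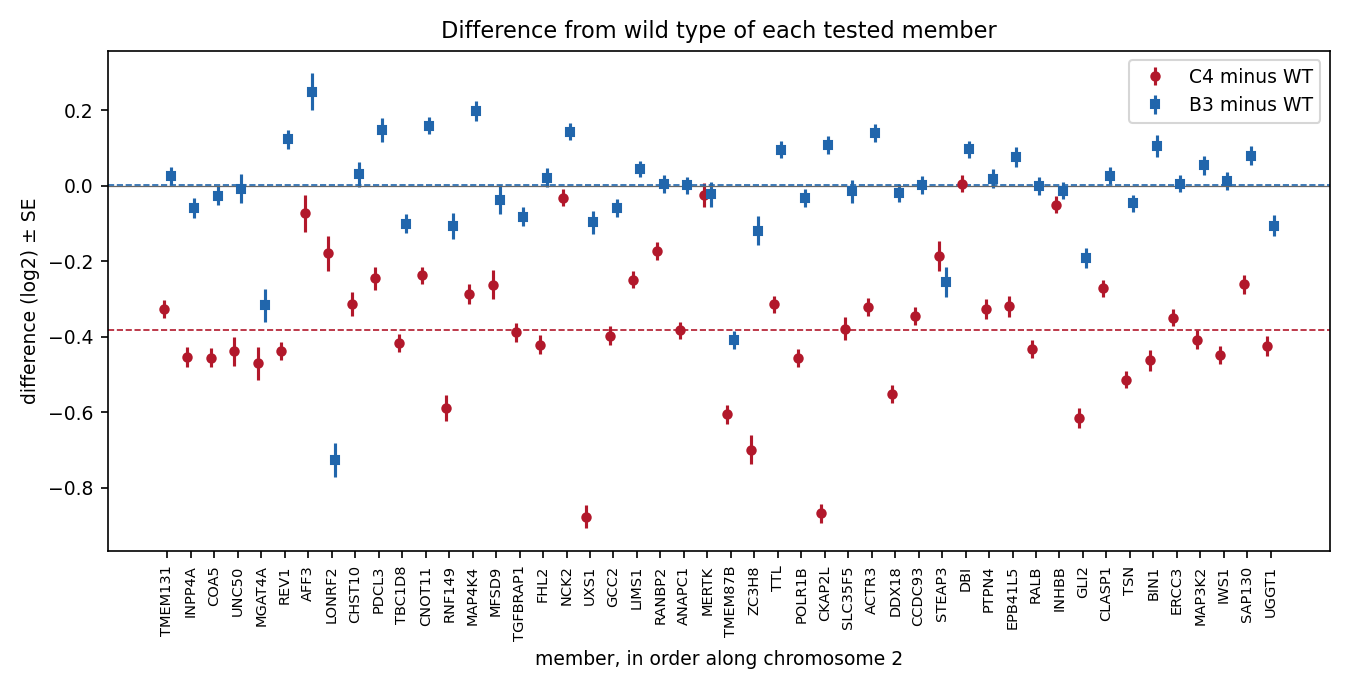
Difference from WT (log2, points ± SE, n = 3 libraries per group) of each tested member in chromosome order, for C4 (red circles) and B3 (blue squares). Dashed lines are the medians, -0.38 in C4 and 0.001 in B3. LONRF2 is the lowest member in B3, and UXS1 and CKAP2L are the lowest in C4.

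The B3 line was not used to choose the members, although its comparison shares the WT libraries with the one that did. There the members moved in both directions. Of the 48, 12 were called lower and 13 higher by limma, which is 25% and 27.1%, near the 24.6% and 23.2% of all genes tested, where 47.9% were called. Without overlap of the libraries, 13 members lay below WT and 15 above it, against 27.4% and 26.4% of all genes tested. The median was 0.001 and the width between quartiles 0.14, against 0.15 for all genes. With every library scaled to the same summed antilog, 7 were lower and 17 higher. That scaling moved the higher share of all called genes to 64.2%, against 48.5% as deposited, and in C4 to 61.5%, against 50.2%. Of the 43 members lower in C4, 21 were not called in B3, 12 were lower and 10 were higher.

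LONRF2 was the member that moved furthest in B3, at -0.73 ± 0.05 (limma adjusted p = 6.25e-12). TMEM87B followed at -0.41 ± 0.02 (adjusted p = 2.37e-12), then MGAT4A at -0.32 ± 0.04 (adjusted p = 2.5e-06) and STEAP3 at -0.25 ± 0.04 (adjusted p = 1.21e-05). These 4 were the members at or below -0.25 in B3, against 37 in C4. GLI2 fell by 0.19 (adjusted p = 1.85e-06) and UGGT1 by 0.11 (adjusted p = 0.00263). The 13 that rose spanned 0.08 to 0.25, with AFF3 at 0.25 ± 0.05 (adjusted p = 0.000156), MAP4K4 at 0.20 ± 0.03 (adjusted p = 1.41e-06) and CNOT11 at 0.16 ± 0.02 (adjusted p = 3.34e-06). The others were PDCL3, NCK2, ACTR3, REV1, CKAP2L, TTL, DBI, BIN1, SAP130 and EPB41L5.

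Several small B3 calls ended when a single library was left out, which also lowers the precision of the fit. That of RNF149 ended without B3 replicate 1 (adjusted p = 0.137) or WT replicate 1 (0.0903). That of UXS1 ended without B3 replicate 1 (0.0763), B3 replicate 2 (0.0525) or WT replicate 1 (0.0594), and that of ZC3H8 without B3 replicate 2 (0.0519) or WT replicate 3 (0.106). EPB41L5 lost its call without B3 replicate 2 (0.0717), B3 replicate 3 (0.0757), WT replicate 1 (0.0825) or WT replicate 3 (0.0521). SAP130 lost its call without B3 replicate 2 (0.0679) or WT replicate 3 (0.0641). The call of GCC2 (adjusted p = 0.0472) ended without any of the B3 and WT libraries, or without C4 replicate 2, at 0.0519 to 0.124. Calls were gained by CHST10 without WT replicate 1 (0.0198), TSN without B3 replicate 3 (0.0432) and INPP4A without C4 replicate 1 (0.0487).

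Set directly against B3, 44 of the 48 members were called lower in C4 and 1, LONRF2, higher, with a median of -0.37. Over all genes tested, 56.4% were called in that comparison, 27.8% lower and 28.6% higher. It shares the C4 libraries with the comparison that chose the members and is given as a description.

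The stretch holds 93 other tested genes that were not on the list, and most of them were lower in C4 too. Of these, 69 were called lower (74.2%) and 3 higher (3.2%), with a median of -0.32. Over all genes tested, the shares were 28.0% and 28.2%. Among those with a mean log2 value of at least 10, 49 of 51 were lower and 1 was higher, with a median of -0.40, close to the -0.39 of the 44 members at that level. Among the 42 weaker ones, 20 were lower and 2 higher. In B3 the 93 were called lower in 20 cases (21.5%) and higher in 18 (19.4%), with a median of -0.01. The B3 shares of all genes tested were 24.6% and 23.2%. The list and the stretch were both proposed with these data in view, so the neighbours are a description as well.

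Among these neighbours, the pair of interleukin-1 genes had the strongest differences. IL1A, which encodes the cytokine interleukin-1α, had log2 values of 9.13, 9.03 and 9.06 in C4, 10.06, 10.02 and 10.06 in B3 and 10.70, 10.76 and 10.74 in WT, a difference of -1.66 ± 0.04 in C4. IL1B, which encodes interleukin-1β, had 7.47, 7.50 and 7.49 in C4, 7.87, 7.75 and 7.81 in B3 and 8.67, 8.65 and 8.60 in WT, a difference of -1.16 ± 0.05. Both were lower in B3 as well, with differences from WT of -0.69 ± 0.04 for IL1A and -0.83 ± 0.05 for IL1B. SLC20A1, a phosphate carrier, was at -1.02 ± 0.03 in C4, SH3RF3, a scaffold of JNK signalling, at -0.96 ± 0.04, SOWAHC, an ankyrin-repeat protein, at -0.82 ± 0.03 and IL18R1, the interleukin-18 receptor, at -0.80 ± 0.05. In the other direction stood LYPD1, a GPI-anchored modulator of nicotinic receptors, at 0.44 ± 0.04, POU3F3, a neural transcription factor gene, at 0.27 ± 0.04 and SLC9A2, a sodium and proton exchanger, at 0.23 ± 0.04. LYPD1 was higher in B3 too (0.93 ± 0.04).

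Along chromosome 2 the lowered stretch in C4 ran beyond the listed genes. The bounds used next were set after the values were seen. Counts of C4 calls within them stand beside 28.0% lower and 28.2% higher over all genes tested. The 37 tested genes from 77 to 95 Mb had a median of 0.02, and the 33 from 95 Mb to ACTR1B one of -0.17, with 23 lower and 0 higher. Next to the first member, TMEM131, ACTR1B, a dynactin subunit, was at -0.02 ± 0.02 and COX5B, a subunit of cytochrome c oxidase, at -0.18 ± 0.03. FAHD2B, ANKRD36 and ANKRD36B were at -0.22 ± 0.04, -0.21 ± 0.06 and -0.15 ± 0.05. They belong to duplicated families and are uncertain. The limma call of ANKRD36 ended without C4 replicate 1 (adjusted p = 0.0651), and that of ANKRD36B without C4 replicate 2 (0.0545), C4 replicate 3 (0.0716) or WT replicate 3 (0.125).

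Beyond the last member, UGGT1, the next genes were HS6ST1, a heparan sulfate sulfotransferase, at -0.33 ± 0.03, RAB6C, a RAB6-like GTPase made from a retrocopy, at -0.02 ± 0.02, CCDC74B at -0.29 ± 0.05, SMPD4, a sphingomyelinase, at -0.30 ± 0.02 and MZT2B, a microtubule nucleation factor, at -0.39 ± 0.04. The 21 genes from the end of the stretch to ACVR2A had a median of -0.40, with 16 lower and 1 higher. ACVR2A, a type II activin receptor, had log2 values of 11.73, 11.70 and 11.77 in C4, 12.07, 12.09 and 12.16 in B3 and 12.27, 12.19 and 12.20 in WT, a difference of -0.49 ± 0.03 (limma adjusted p = 4.52e-12). ORC4, a subunit of the origin recognition complex, whose annotated 3′ end overlaps that of ACVR2A by 429 bases, had 12.50, 12.47 and 12.46 in C4, 12.44, 12.46 and 12.48 in B3 and 12.53, 12.59 and 12.55 in WT. Its difference was -0.08 ± 0.03 (adjusted p = 0.0111), and its call ended without WT replicate 2 (adjusted p = 0.0745) and with libraries scaled to the same summed antilog (0.0879). The next named genes, MBD5, EPC2 and KIF5C, were at 0.19 ± 0.04, 0.14 ± 0.03 and 0.26 ± 0.03. The 18 genes from ORC4 to 20 Mb beyond the stretch had a median of 0.10, with 11 higher and 4 lower.

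**Figure D4:**
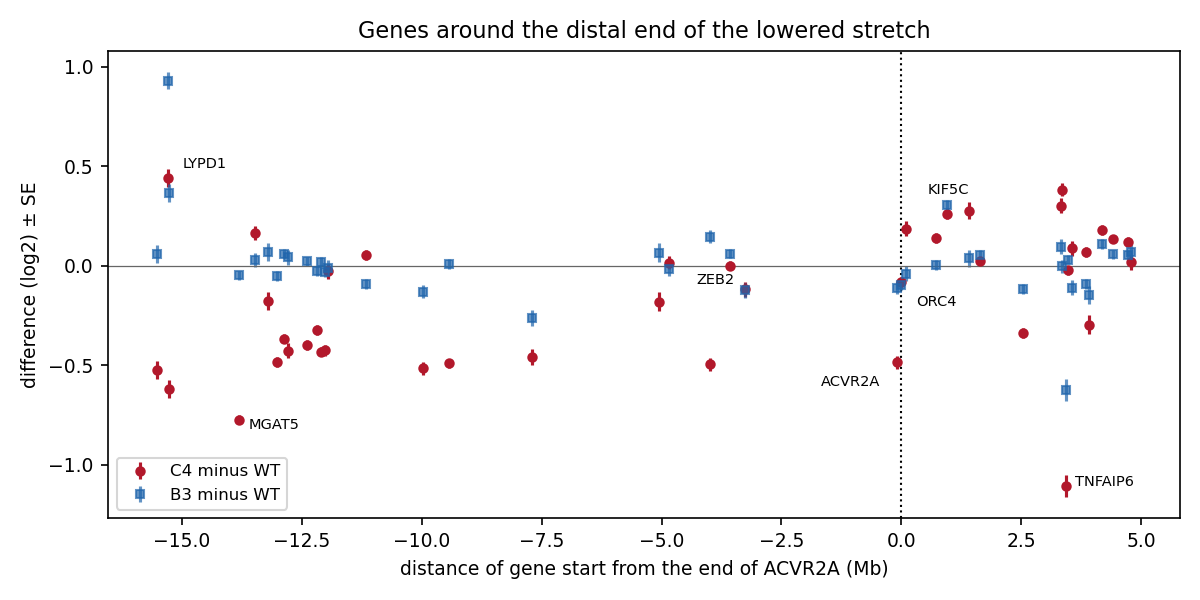
Difference from WT (log2, points ± SE, n = 3 libraries per group) of tested genes by distance of their start from the end of ACVR2A in Mb (dotted line), for C4 (red circles) and B3 (blue squares). Left of the line, the C4 genes beyond the end of the 36-Mb stretch have a median of -0.40, and right of it one of 0.10.

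From TMEM131 to ACVR2A, 124 of 157 tested genes (79.0%) were lower in C4, against 28.0% of all genes tested, with a median of -0.35. Inside that span ZEB2, a transcription factor of neural crest and mesenchyme, stood near 0 at 0.000854 ± 0.0226. Elsewhere on the chromosome, the 368 genes below 77 Mb had a median of 0.01 and the 127 in the 32 Mb after those 20 Mb one of 0.005. From there to the end of the chromosome, the 275 genes had a median of -0.11 in C4, with 162 lower (58.9%) and 31 higher (11.3%). In B3 they had a median of 0.04, with 42 lower (15.3%) and 105 higher (38.2%). Over all genes tested, 28.0% were lower and 28.2% higher in C4, and 24.6% and 23.2% in B3.

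Many members act in complexes or pathways whose other genes lie elsewhere. In 12 lists of such partners, 112 of 114 genes were tested. In C4, 36 were called lower (32.1%) and 41 higher (36.6%), against 28.0% and 28.2% of all genes, with a median of 0.001. Among all genes with a mean log2 value of at least 10, the shares were 32.9% and 34.7%. In B3, 26 were lower (23.2%) and 34 higher (30.4%), with a median of 0.02. The B3 shares of all genes were 24.6% and 23.2%, and 28.0% and 29.9% at that level. Nothing is read from the partner counts as a whole. The lists were drawn up with earlier results of these data known.

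Partners of the anaphase-promoting complex numbered 2 lower and 4 higher of 13 in C4, with ANAPC2, its cullin subunit, at 0.28 ± 0.03 (limma adjusted p = 5.39e-08). Of 8 partners of ACTR3, 3 were lower and 3 higher. Among the higher ones, ARPC5, a subunit of the Arp2/3 complex, was at 0.18 ± 0.02 (adjusted p = 6.56e-07). Among the lower ones, the structural subunit ARPC4 was at -0.25 ± 0.03 (adjusted p = 1.2e-08). Another of the lower ones, ARPC2, at -0.16 ± 0.02, lies on chromosome 2 itself. It is in the last segment of that chromosome, whose 275 genes had a median of -0.11 in C4. In B3, 5 of the 8 partners of ACTR3 were higher and 0 lower. Of 12 other polymerase I genes, 7 were lower and 4 higher, with POLR1E, a polymerase I-specific subunit, at -0.35 ± 0.03 (adjusted p = 1.03e-10). TFIIH had the highest share of decreases among the 12 lists: 7 of 8 were lower and 1 higher, with a median of -0.14 and GTF2H3, a core subunit, at -0.24 ± 0.03 (adjusted p = 2.37e-07). CORVET was its opposite, with 5 of 5 higher and VPS18, a core subunit, at 0.19 ± 0.03 (adjusted p = 1.17e-06). The Sin3 list had 1 lower and 7 higher of 16, led by SAP30L, a Sin3 adaptor, at 0.37 ± 0.03 (adjusted p = 5.82e-11).

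The other lists were mixed. CCR4-NOT had 2 lower and 4 higher of 9, and its deadenylase gene CNOT6 was at 0.20 ± 0.02 (limma adjusted p = 1.93e-07). The ILK adhesion list had 2 lower and 4 higher of 7, with PARVA, which links ILK to actin, at 0.42 ± 0.02 (adjusted p = 8.72e-14). Translesion synthesis had 2 lower and 4 higher of 8. Its polymerase ζ pair moved apart, with the catalytic subunit REV3L at 0.45 ± 0.03 (adjusted p = 1.08e-12) and the accessory subunit MAD2L2 at -0.37 ± 0.03 (adjusted p = 1.56e-10). The nuclear pore list had 3 lower and 1 higher of 7, the higher one being NUP214, a nucleoporin of the cytoplasmic face, at 0.21 ± 0.02 (adjusted p = 5.41e-08). The activin list had 3 lower and 1 higher of 9. Its lower genes were ACVR2A, which lies in the lowered stretch itself, the activin subunit gene INHBA at -0.38 ± 0.03 (adjusted p = 2.56e-11) and the signal transducer SMAD3 at -0.34 ± 0.02 (adjusted p = 7.81e-12).

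The Hedgehog pathway held the largest partner differences. Hedgehog ligands bind the receptor PTCH1 and release SMO, and GLI proteins then raise transcription of targets that include GLI1, PTCH1 and HHIP. HHIP, which sequesters the ligands, had log2 values of 10.53, 10.47 and 10.52 in C4, 11.84, 11.78 and 11.91 in B3 and 12.03, 11.97 and 11.99 in WT. It was lower in C4 (-1.49 ± 0.03, limma adjusted p = 2.79e-20) and less so in B3 (-0.15 ± 0.03, adjusted p = 0.000848). GLI1, an activator and target of the pathway, had 8.22, 8.26 and 8.24 in C4, 8.66, 8.55 and 8.67 in B3 and 9.03, 9.04 and 9.02 in WT, with differences of -0.79 ± 0.05 in C4 (adjusted p = 7.08e-13) and -0.40 ± 0.05 in B3 (adjusted p = 1.35e-07). PTCH1 had 13.05, 13.10 and 13.13 in C4, 13.73, 13.77 and 13.72 in B3 and 13.78, 13.66 and 13.72 in WT, lower in C4 (-0.63 ± 0.03, adjusted p = 6.33e-15) and at 0.02 ± 0.03 in B3 (adjusted p = 0.604). For these 3 targets and for GLI2 itself, the C4 libraries were the lowest. The co-receptor gene BOC was at -0.16 ± 0.04 in C4, while the inhibitor SUFU, the factor GLI3 and the co-receptor GAS1 were higher, at 0.21 ± 0.03, 0.22 ± 0.03 and 0.29 ± 0.03. In all, 4 of the 10 tested Hedgehog partners were lower and 3 higher in C4, and 5 were lower and 0 higher in B3. Whether the level of GLI2 bears on these targets was not tested.

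**Figure D5:**
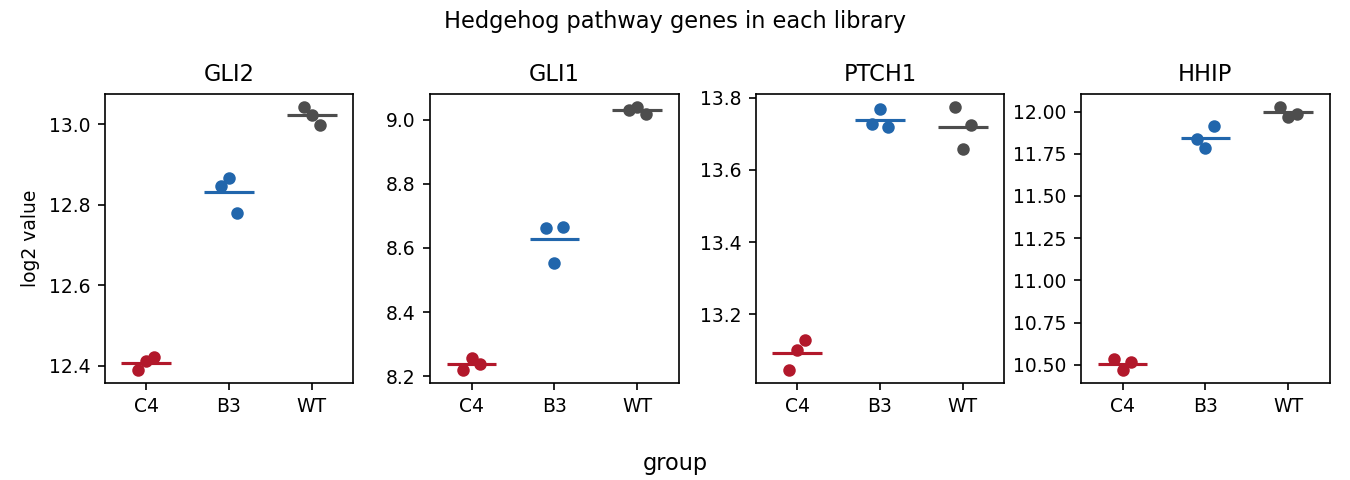
Log2 values of GLI2, GLI1, PTCH1 and HHIP (1 panel each, with its own vertical scale) in the 3 C4, 3 B3 and 3 WT libraries. Points are libraries and horizontal lines group means, and the C4 points are the lowest in each panel.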

How the data were processed

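Polyadenylated RNA of 9 libraries was used, 3 each of the ARNT2 knockout lines C4 and B3 and of WT, grouped by the labels. The submitters' processing notes name the aligner STAR (2.7.3a), the package Subread (1.6.3), DESeq2 and genome build hg38; the settings are not given in the sources used here. The authors deposited log2 values scaled between libraries, whose SD shrinks at low values as in a regularized-log transform; the transform is not named. The deposited log2 values were tested as they stand, with no pseudocount.

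A gene was kept when its antilogs averaged 10 or more across all libraries (16457 of 19356). All libraries entered 1 fit in limma 3.58.1 (R 4.3.3) with group terms and an intensity trend, and p-values were adjusted by the Benjamini-Hochberg method over all genes tested, with a threshold of 0.05. The script was tested on simulated data. Gene positions are from GENCODE 29 (GRCh38), matched by symbol, which gave a unique position to 92.6% of tested genes. The members, role groups, partner lists and the 36-Mb stretch from 97 Mb were chosen with earlier results of these data known. Values per library are printed for the 3 members with the highest mean in each role group, the 4 with the most and the 4 with the least negative difference in C4, and those not lower in C4 or higher in B3. Other genes of the stretch are named by the 6 largest differences in each direction among calls whose antilogs averaged 50 or more and whose groups lay apart (3 qualified as higher). Partners are named by their largest called differences, up to 3 per list, with the genes around ACVR2A added after the values were seen. The Hedgehog list is the exception, since all of its genes called in C4 are named. Alternatives were other filters, scalings, pseudocounts and moderation, fits of only the compared groups, a replicate block and leaving out each library. Of 9 same-numbered library pairs, 0 correlated above 0.1 in their deviations from the group means, so the replicate numbers do not pair the libraries. No label gives a sequencing batch.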

Additional observations from a re-analysis of the deposited data

Results flagged for a closer look

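In 12 members every C4 library lay below and every B3 library above every WT library, so that the lines stood on opposite sides of WT. Over all genes tested, C4 lay below WT without overlap in 30.2%, and B3 above WT in 26.4%. The share of all genes that met both was not counted. As the members were chosen for low values in C4, nothing is read from the count of 12. Of the 12 members, the 3 with the widest gap between C4 and B3 were CKAP2L, a spindle protein gene, at -0.98 on the log2 scale, BIN1, a membrane-bending protein gene, at -0.57 and REV1, of translesion synthesis, at -0.56. MAP4K4, a kinase gene, was at -0.49, MAP3K2, another kinase gene, at -0.46, the Arp2/3 subunit gene ACTR3 at -0.46 and the tubulin tyrosine ligase gene TTL at -0.41. CNOT11 of the CCR4-NOT deadenylase was at -0.40, EPB41L5 of cell polarity at -0.40, the chaperone gene PDCL3 at -0.39, SAP130 of the Sin3 complex at -0.34 and LIMS1 of integrin adhesions at -0.29. In B3 against WT, MAP3K2 and LIMS1 were not called by limma. As the members were chosen by their values in C4, these differences of C4 from B3 are a description, as are limma's calls for them, and were not tested in libraries that played no part in the choice.

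Of the other genes of the stretch named above, 3 had the lines on opposite sides of WT and differing by limma. How many of the unnamed genes did so was not counted. POU3F3, a neural transcription factor gene, had C4 above WT and B3 below it, the reverse of the members' pattern. Its C4 value was higher than that of B3 by 0.50 (limma adjusted p = 1.47e-10). HS6ST1, a heparan sulfate sulfotransferase gene, was at -0.42 in C4 relative to B3 (adjusted p = 1.26e-11), and SMPD4, a sphingomyelinase gene, at -0.49 (adjusted p = 8.76e-15). In each of these, all 3 libraries of a line lay on the same side of WT.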

How the results depend on the processing

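The count of members lower in C4 than in WT was 42 with a mean log2 value of at least 10, an alternative added after the data were seen, 39 without RANBP2, GCC2, LIMS1 and ANAPC1, which have near-identical copies, and 43 or 44 under the others, and 0 were higher; their median was -0.35 with every library scaled to the same summed antilog and -0.40 to -0.36 when single libraries were left out. Against B3 the members' median was -0.39 when antilogs had to average 50 or more and -0.39 with a mean log2 value of at least 10. In B3, scaling to the same summed antilog gave 7 members lower and a median of 0.034; centring on the same median gave 0.0126, and leaving out single libraries -0.0016 to 0.0063. For other genes of the stretch in C4, bounds of 100 to 130 Mb gave 44 lower and a median of -0.356, no filter a median of -0.145, a mean antilog of at least 50 one of -0.356, and a mean log2 value of at least 10 left 1 higher and a median of -0.400. In B3 those genes had 13 lower, 29 higher and a median of 0.025 with the same summed antilog, 13 lower with a mean log2 value of at least 10, a median of 0.0038 with the same median, and -0.0106 to 0.0027 when single libraries were left out. Partner medians with the same summed antilog were 0.0304 in C4 and 0.0510 in B3; the same median gave 0.0294 in B3, and leaving out single libraries 0.000697 to 0.0159 in C4 and 0.0091 to 0.0259 in B3. The cause of these shifts was not tested; the scaling itself moves all genes alike. With the replicate number as a block, 43 members were lower in C4, and 11 lower and 13 higher in B3, where the GCC2 call ended (adjusted p = 0.0604); the numbers do not pair the libraries. Of 2312 recomputed single-gene values, 38 calls ended, 11 were gained and 0 turned direction. Depth is unknown, weak genes may be pulled toward their mean, and 3 libraries per group limit the precision.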
